A study of Homo sapiens with 6 samples.

Results

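The mitochondrial ribosomal protein genes were examined for histone marks at their start sites in HSC3 cells, an established cell line of oral squamous cell carcinoma (OSCC). The genes were taken as the GENCODE protein-coding genes on hg19 whose symbols begin with MRPL or MRPS and a digit, which gave 78 of 20090 protein-coding genes, 49 named for the large and 29 for the small subunit. Cells were transfected with a control siRNA or with siDLEU1-2, an siRNA against the lncRNA DLEU1, and collected at 72 h. Chromatin immunoprecipitation-sequencing (ChIP-seq) of histone H3 lysine 27 acetylation (H3K27ac) and lysine 4 trimethylation (H3K4me3) was done with 1 library for each siRNA and mark. Both groups are therefore single transfections of 1 cell line, differences below could not be checked against replicates, and none has a p-value.

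Mitochondrial ribosomal proteins are encoded in the nucleus, made in the cytosol and imported into mitochondria. There they join the mitochondrial ribosomal RNAs to form a ribosome that makes the few proteins of the respiratory chain encoded by mitochondrial DNA. Some of the proteins have a counterpart in the bacterial ribosome, and others are found only in mitochondrial ribosomes. H3K4me3 lies on the nucleosomes around active start sites, and H3K27ac marks active promoters and enhancers. Genes of this kind have CpG-rich promoters of the housekeeping type, in which binding letters for ETS factors such as GABPA and for YY1 are common.

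The promoters below carry the letters to which the called regions are compared later. They belong to members whose regions are described one by one further on, and to MRPL46, which shares its strongest regions with MRPS11. Each runs from −120 to +30 of the RefSeq start site, 5′ to 3′ on the gene's strand, with GRCh37 (hg19) coordinates found by exact match. Capitals mark CCGGAAG (ETS) or its reverse complement CTTCCGG, the 10-letter motif of YY1 (the capitals of MRPL46), the 10-letter palindrome of NRF1 (the capitals of MRPL17), and CCAAT (NF-Y) or its reverse complement ATTGG.
MRPL17 (chr11:6704542-6704691, minus strand): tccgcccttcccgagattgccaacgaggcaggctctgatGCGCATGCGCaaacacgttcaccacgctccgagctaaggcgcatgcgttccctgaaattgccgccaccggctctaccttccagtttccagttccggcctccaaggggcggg
MRPL20 (chr1:1342644-1342793, minus strand): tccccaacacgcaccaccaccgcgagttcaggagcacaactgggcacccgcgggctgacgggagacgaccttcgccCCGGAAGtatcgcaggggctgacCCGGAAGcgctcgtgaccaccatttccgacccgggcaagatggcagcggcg
MRPL41 (chr9:140446211-140446360, plus strand): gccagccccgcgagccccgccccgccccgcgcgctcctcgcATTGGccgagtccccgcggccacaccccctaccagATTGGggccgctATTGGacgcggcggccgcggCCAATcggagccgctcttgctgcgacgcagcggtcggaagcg
MRPL46 (chr15:89010590-89010739, minus strand): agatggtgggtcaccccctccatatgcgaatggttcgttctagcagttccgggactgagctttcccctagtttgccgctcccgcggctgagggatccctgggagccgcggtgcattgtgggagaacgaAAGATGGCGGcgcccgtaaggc
MRPL58 (chr17:73008645-73008794, plus strand): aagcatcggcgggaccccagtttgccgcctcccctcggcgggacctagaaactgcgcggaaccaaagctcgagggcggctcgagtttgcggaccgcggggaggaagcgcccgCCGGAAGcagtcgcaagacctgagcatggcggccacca
MRPS10 (chr6:42185570-42185719, minus strand): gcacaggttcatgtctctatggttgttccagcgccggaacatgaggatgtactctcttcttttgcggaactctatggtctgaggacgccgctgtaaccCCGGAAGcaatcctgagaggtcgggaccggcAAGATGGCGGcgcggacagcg
MRPS18A (chr6:43655499-43655648, minus strand): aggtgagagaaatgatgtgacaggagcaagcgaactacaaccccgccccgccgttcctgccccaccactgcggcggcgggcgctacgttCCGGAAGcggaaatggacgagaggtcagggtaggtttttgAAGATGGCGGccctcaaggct
MRPS26 (chr20:3026578-3026727, plus strand): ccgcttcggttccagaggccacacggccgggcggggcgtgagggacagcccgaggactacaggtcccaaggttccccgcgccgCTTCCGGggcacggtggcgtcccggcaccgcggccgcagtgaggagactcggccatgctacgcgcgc
MRPS34 (chr16:1823106-1823255, minus strand): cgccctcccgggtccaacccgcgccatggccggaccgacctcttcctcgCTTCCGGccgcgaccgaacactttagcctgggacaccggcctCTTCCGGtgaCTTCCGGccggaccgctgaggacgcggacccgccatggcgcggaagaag

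Among 85 RefSeq promoters of 69 members, from 250 bases before to 50 after the start (RefSeq, GRCh38.p14), the ETS letters CCGGAAG stood on either strand in 33, or 38.8%. The same letters stood in 12.8% of 22199 promoters of protein-coding genes. The YY1 motif, as spelled by the capitals of MRPL46 above, stood in 13 of the 85 promoters, or 15.3%, against 1.68% of those of protein-coding genes. Both were thus more frequent at these genes than over all protein-coding genes, with or without the marks studied here. Counts among marked genes are given further on. The cytosolic ribosomal protein genes shared the ETS letters (32.2% of 87 promoters) but had the YY1 letters in only 3.45%. Of 39 promoters of mitochondrial ribosome assembly and translation factors, 46.2% held the ETS letters and 7.69% the YY1 letters. Of the 45 ETS matches at members, 32 began at −60 or later, and 10 of the 13 YY1 matches began after the start site. The ETS matches were counted over all 85 promoters, so letters in overlapping promoters of a gene, as at MRPS22, MRPL47 and MRPS12, count more than once. ETS and YY1 letters did not overlap in any of the 4 members that held both.

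The other letters searched were not more frequent at the members to the same degree. The NRF1 palindrome, as in the capitals of MRPL17, stood in 1.18% of member promoters, that of MRPL17 alone, and in 1.5% of those of protein-coding genes. With any base at the fifth place of that motif, which takes in the former, the shares were 11.8% and 7.39%. The E box CACGTG was found in 10.6% and 8.34%, CCAAT in 32.9% and 34.7%, and the TATA box TATAAA in 3.53% and 9.47%. The promoters had a median GC content of 60.3%, against 62.3%. A match is only the presence of these letters and was not examined for binding. RefSeq promoters of MRPL10, MRPL13, MRPL15, MRPL2, MRPL21, MRPL23, MRPL35, MRPS28 and MRPS36 were not used here.

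The peak lists of the 4 libraries held 19705 and 17672 H3K27ac regions and 58582 and 56943 H3K4me3 regions with the control siRNA and siDLEU1-2. A list holds the place of every region with its fold enrichment and its −log10 p and −log10 q. Fold enrichment is the signal at the summit over the local background and is relative to the background of its own library, so the strongest region at a gene was given a percentile rank among all regions of that list (100, the top region; 0, no region). Because fold enrichment and p come from the same number of fragments, the fragments at the summit and the local background could be solved for each region, and the p was matched for 100% of the regions. Summits had a median of 75 and 68 fragments for H3K27ac and of 47 and 41 for H3K4me3.

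All 78 mitochondrial ribosomal protein genes had a region within 1 kb of a start site in each of the 4 lists (lower 95% Wilson bound 95.3%, for counting only). Of all protein-coding genes, 61.5% and 58.5% had an H3K27ac region with the control siRNA and siDLEU1-2, 61.2% and 60.8% an H3K4me3 region, and 55.8% had regions in all 4 lists. No member lost or gained a mark. Of all protein-coding genes with an H3K27ac region under the control siRNA 5.15% had none with siDLEU1-2, and 0.362% of those without one gained it, and for H3K4me3 these shares were 3.07% and 3.83%. Each list held 77 distinct strongest regions, because MRPL46 and MRPS11, which are transcribed away from each other, shared one. A window of 500 bp also gave 78 genes in every list. With a stricter limit, a −log10 q of 10 or more, 77 members had H3K27ac with the control siRNA and 71 with siDLEU1-2, against 57.3% and 48.8% of all protein-coding genes. For H3K4me3 these counts were 73 and 76, against 51.7% and 53.1%. MRPL1, MRPL24, MRPL48, MRPS10, MRPS18A and MRPS18B were above this limit for H3K27ac with the control siRNA only, and MRPL28 was below it in all 4 lists.

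The members had a median H3K27ac rank of 79.0 with the control siRNA and 79.6 with siDLEU1-2, and a median H3K4me3 rank of 85.6 and 89.4. Over all marked protein-coding genes the medians were 71.4 and 67.1 for H3K27ac and 83.2 and 84.6 for H3K4me3. MRPL23, a protein at the rim of the exit tunnel of the large subunit (chromosome 11, 1968508 to 2005752, plus strand), held the highest member rank, at 99.9 in both H3K27ac lists and above 99.6 in both H3K4me3 lists. Its summits had 212 and 163 fragments of H3K27ac and 216 and 236 of H3K4me3. MRPL28, a large subunit protein with a bacterial counterpart (chromosome 16, 416969 to 421289, minus strand), was the weakest member for H3K27ac, with 27 and 26 fragments and ranks of 15.2 and 6.84.

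The shape of the H3K27ac signal differed between the siRNAs more than its presence. At the canonical start site itself, 92.3% of the members lay inside an H3K27ac region with the control siRNA and 71.8% with siDLEU1-2. For H3K4me3 the order was the reverse, with 76.9% and 89.7%. The same directions were seen over 11173 of the 11210 protein-coding genes marked in all 4 lists, those with an annotated canonical start (37 had none), with 74.5% and 49.8% for H3K27ac and 55.7% and 64.5% for H3K4me3. Both marks had a minor maximum upstream of the start, where H3K27ac covered 70.5% of members with the control siRNA at −280 bp and 53.8% with siDLEU1-2 at −300 bp, and H3K4me3 85.9% and 79.5%. Over all these genes the upstream maxima were 61.2% and 43.0% for H3K27ac and 67.8% and 65.1% for H3K4me3. Downstream, at +500 bp, H3K27ac still covered 94.9% and 91.0% of members and 85.6% and 78.8% of all these genes.

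**Figure D1:**
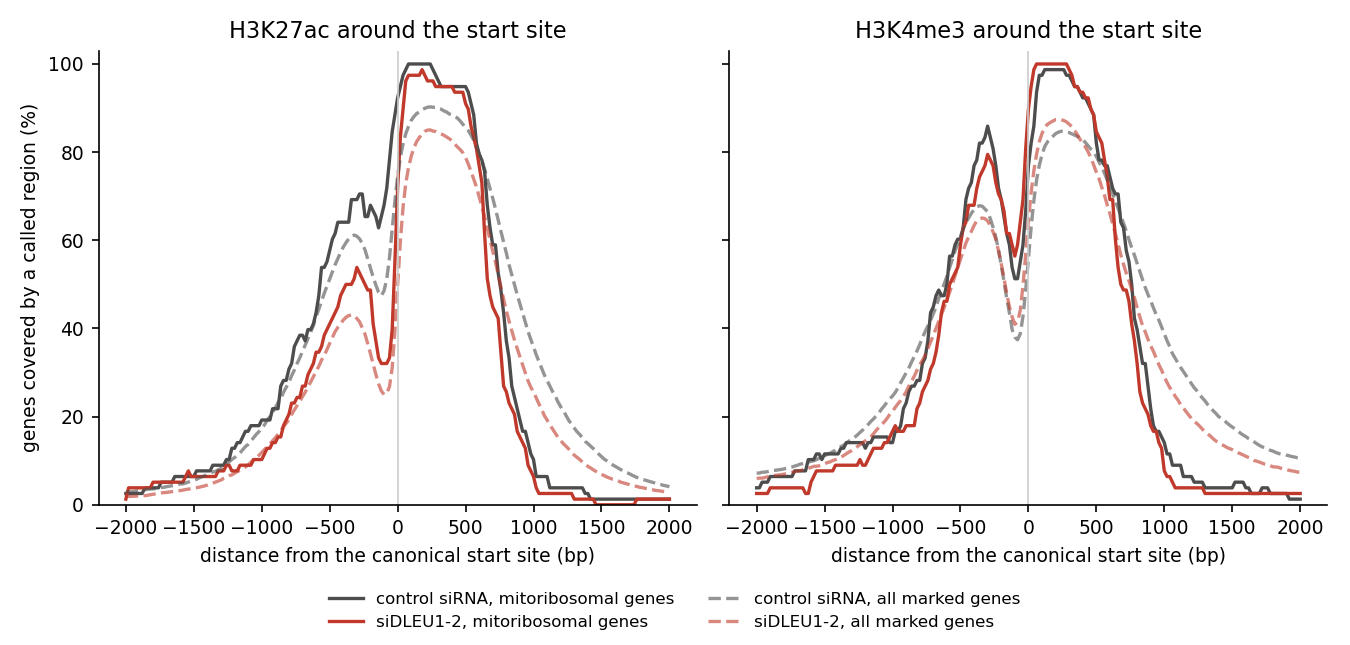
Share of genes whose position at a given distance from the canonical start site (x axis, bp, negative upstream) lay inside a called region (y axis, %), for H3K27ac (left) and H3K4me3 (right). Solid lines are the 78 mitochondrial ribosomal protein genes and dashed lines the 11173 protein-coding genes marked in all 4 lists that have a canonical start; grey is control siRNA and red siDLEU1-2. At the start site the members' H3K27ac share was 92.3% with the control siRNA and 71.8% with siDLEU1-2, and the H3K4me3 share 76.9% and 89.7%.

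In the core promoter, the 300 bases from −250 to +50, the median number of bases inside H3K27ac regions at the members was 300 with the control siRNA and 98.5 with siDLEU1-2, against 163 and 74 over all genes marked in all 4 lists. It was wholly covered at 44 and 24 members, and over all genes marked in all 4 lists at 39.3% and 18.3%. H3K27ac covered fewer of these bases at 53 members (67.9%) with siDLEU1-2 and more at 2, against 68.2% of all such genes with fewer. A core promoter without a covered base under the control siRNA could not lose any. This held for 1 member and for 1111 of the 11173 genes, so the 2 shares that lost rest on unequal bases. H3K4me3 went from a median of 205.5 to 300 bases, against 132 and 147 over all such genes, and was complete at 36 and 40 members, against 28.6% and 32.3%. It covered fewer bases at 13 members and more at 30 (38.5%), against 23.6% and 41.0% of all such genes. A core promoter already complete with the control siRNA could not gain, which held for 46.2% of members and 28.6% of all such genes. The 2 shares that gained can therefore not be compared directly. The members thus started from a more fully covered core promoter. Whether H3K27ac coverage fell as often at them as at other genes able to lose it was not tested.

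In the core promoters on GRCh37, the ETS letters stood at 32 of the 78 members and at 2456 of the 11173 genes marked in all 4 lists. The YY1 letters stood at 13 members and at 384 of these genes. Of both letters, fewer lay inside H3K27ac regions with siDLEU1-2, at the members and over all genes. Of 44 ETS matches at 32 members, 38 (86.4%) lay wholly inside an H3K27ac region with the control siRNA and 21 (47.7%) with siDLEU1-2, against 74.9% and 45.7% of 3049 ETS matches at all genes marked in all 4 lists. Inside an H3K4me3 region lay 33 and 34 of them, against 56.2% and 63.7%. Of 13 YY1 matches at 13 members, 10 and 8 lay inside an H3K27ac region, against 86.0% and 65.6% of 387 matches at all such genes, and 8 and 13 inside an H3K4me3 region, against 74.2% and 83.2%. At MRPS34, which encodes a small subunit protein found only in mitochondrial ribosomes, the ETS matches at −71, −29 and −19 in the sequence above were inside the H3K27ac region with the control siRNA and in none with siDLEU1-2. They were inside an H3K4me3 region in both lists. At MRPS18A, the ETS match at −31 and the YY1 match at +10 were inside the H3K27ac region only with the control siRNA, and the YY1 match was inside an H3K4me3 region only with siDLEU1-2. At MRPL20 and MRPS26 the ETS matches, and at MRPL46 the YY1 match, were inside regions in all 4 lists.

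The width of the strongest H3K27ac region at the members had a median of 1149 bp with the control siRNA and 771 bp with siDLEU1-2. The median ratio within a gene was 0.829, against 0.794 over all protein-coding genes, and 67 members had a narrower region, against 90.0% of all genes. At 11 members the region was at most 0.5 times as wide (MRPL1, MRPL32, MRPL36, MRPL47, MRPS12, MRPS23, MRPS24, MRPS27, MRPS34, MRPS36 and MRPS9), against 16.8% of all genes. H3K4me3 widths had medians of 944.5 and 1023.5 bp and a median ratio within a gene of 0.976, against 0.939, with 44 members narrower against 61.9% of all genes. No member had an H3K4me3 region at most 0.5 times as wide, against 6.08% of all genes. The H3K27ac region was wider than the H3K4me3 region at 53 members with the control siRNA and at 26 with siDLEU1-2, against 56.8% and 36.7% of all protein-coding genes with both marks.

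**Figure D2:**
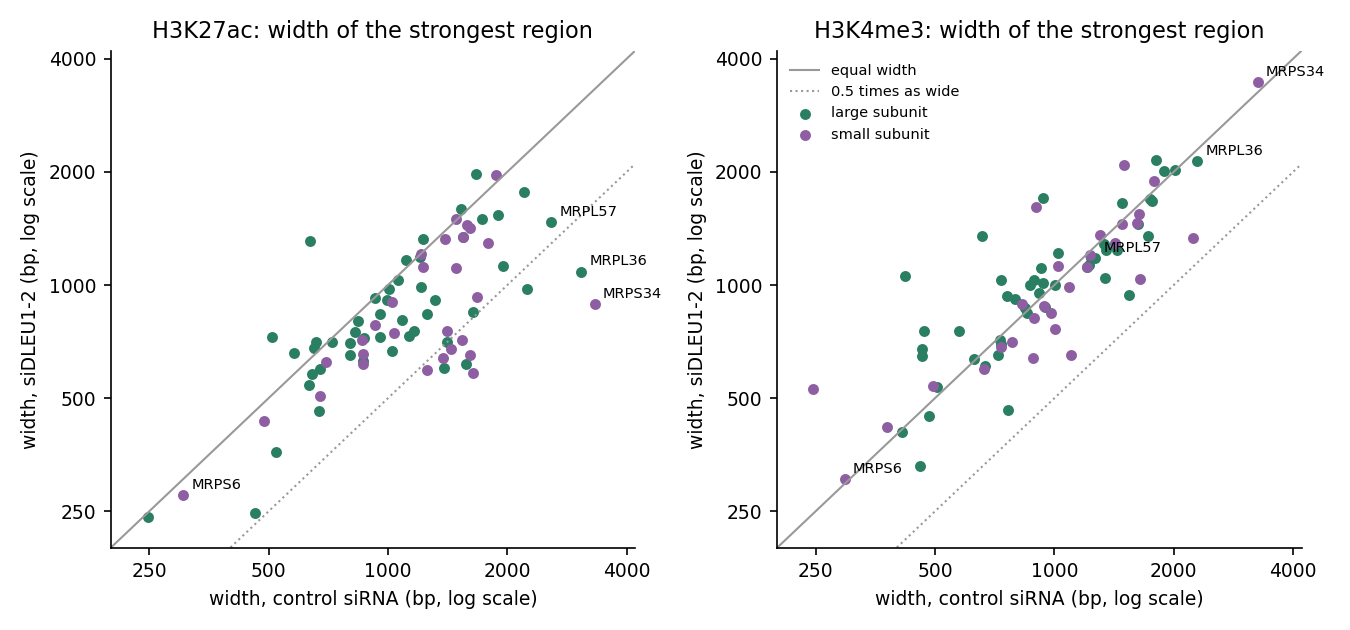
Width of the strongest region at each of the 78 genes with the control siRNA (x axis, bp, log scale) and with siDLEU1-2 (y axis, bp, log scale), for H3K27ac (left) and H3K4me3 (right). Points are genes coloured by the subunit in their symbol, the solid line is equal width and the dotted line 0.5 times the control width. For H3K27ac 67 points lie below the solid line and 11 on or under the dotted one, and for H3K4me3 44 and 0.

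The widest H3K27ac regions of control cells lay at MRPS34, MRPL36 and MRPL57. At MRPS34 (chromosome 16, 1821891 to 1823151, minus strand) 1 region of 3321 bp ran from −1132 to 2188 of the start with the control siRNA. With siDLEU1-2, 2 regions, from −1066 to −179 and from −5 to 1287, stood in its place, and the H3K4me3 region was undivided, with 3257 and 3459 bp. MRPL36, a small protein of the large subunit with a bacterial counterpart (chromosome 5, 1798499 to 1801480, minus strand), had an H3K27ac region of 3074 bp with the control siRNA. With siDLEU1-2, 3 regions stood in its place, the strongest of 1086 bp upstream of the start and the others of 843 and 526 bp. Fragments at the summit of the strongest region were 174 and 148. MRPL57 went from 2576 to 1471 bp. The narrowest regions with the control siRNA were at MRPL28 (249 bp, then 242 bp), MRPS6 (304 bp, then 276 bp) and MRPL48 (461 bp, then 248 bp).

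Where the canonical start lay inside the strongest H3K27ac region in both lists, at 48 members, the upstream side was shorter with siDLEU1-2 at 42 and the downstream side at 32, with median losses of 90.5 and 19.5 bp. Over all protein-coding genes 90.4% were shorter upstream and 80.9% downstream, with median losses of 68 and 75 bp, so the upstream share of the members (87.5%) was close to the background. For H3K4me3, at 50 members, the losses were 13.5 and 20.5 bp, against 9 and 65 bp. At 26 members, another protein-coding gene started within 1 kb in the opposite direction, against 9.34% of all protein-coding genes. Such partners include FAU at MRPL49, SARS2 at MRPS12, TWNK at MRPL43 and PPP1R10 at MRPS18B. At these members the core promoter was wholly covered by H3K27ac at 19 with the control siRNA and 11 with siDLEU1-2, with a median of 300 and 178 bases. In the 52 others it was wholly covered at 25 and 13, with a median of 267.5 and 76.5 bases.

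The fragments at the summit give a measure that is not divided by the local background. The region they were taken from was still chosen by fold enrichment, which is. For H3K27ac the members had a median of 129 fragments with the control siRNA, with a range of 27 to 232, and 104.5 with siDLEU1-2, with a range of 26 to 196. Fewer were counted with siDLEU1-2 at 73 of 78, against 90.4% of all protein-coding genes. For H3K4me3 the medians were 113.5 and 111, with ranges of 31 to 216 and 22 to 236, and fewer were counted at 37, against 63.8% of all genes. To remove what all genes shared, each ratio of siDLEU1-2 to control was divided by the median ratio of all protein-coding genes, 0.793 for H3K27ac and 0.917 for H3K4me3. The members then had median ratios of 1.02 and 1.11.

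The 95% counting interval of this ratio, which compares these libraries and not the conditions, was below 1 for H3K27ac at 1 member and above 1 at 4, against 3.43% and 3.88% of all genes. MRPS18A, which by symbol is a small subunit protein but is known to sit in the large subunit of the human ribosome (chromosome 6, 43638939 to 43655528, minus strand), had 94 fragments with the control siRNA and 46 with siDLEU1-2, a ratio of 0.617 (0.424 to 0.887). Its H3K4me3 summit had 40 and 41 fragments. MRPL53 (64 and 84 fragments), MRPS24 (66 and 87) and MRPS33 (54 and 68) had more H3K27ac fragments with siDLEU1-2, with ratios of 1.65, 1.66 and 1.59. All 3 had fewer H3K27ac fragments with the control siRNA than the median member.

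MRPL41, which encodes a large subunit protein without a bacterial counterpart (chromosome 9, 140446331 to 140447007, plus strand), was the fourth of the members above 1, and there the strongest region changed place. With the control siRNA it lay upstream, from −753 to −245 with 93 fragments, and with siDLEU1-2 downstream, from 16 to 743 with 152 fragments, a ratio of 2.06 (1.58 to 2.70). The downstream region was also present with the control siRNA, from −22 to 709 with 145 fragments, so at the region with the most fragments the ratio was 1.32 (1.04 to 1.67). The upstream region had 51 fragments with siDLEU1-2. H3K4me3 showed the same 2 regions, with 78 and 75 fragments with the control siRNA and 47 and 79 with siDLEU1-2. The strongest regions of the 2 lists overlapped at 76 members for H3K27ac and at 70 for H3K4me3.

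For H3K4me3 the interval was above 1 at 16 members and below 1 at 3, against 11.3% and 11.9% of all genes. The 16 were MRPL12, MRPL17, MRPL20, MRPL24, MRPL36, MRPL37, MRPL4, MRPL42, MRPL53, MRPS10, MRPS12, MRPS25, MRPS27, MRPS28, MRPS33 and MRPS36. MRPL12, a protein of the stalk that binds translation factors (chromosome 17, 79670397 to 79674547, plus strand), had 111 and 175 fragments, a ratio of 1.72 (1.35 to 2.20). MRPS10, a small subunit protein with a bacterial counterpart (chromosome 6, 42174545 to 42185599, minus strand), had 31 and 52, a ratio of 1.83 (1.15 to 2.95), and its region widened from 247 to 530 bp. MRPL20, which has a bacterial counterpart too, had 91 and 126 fragments. Below 1 were MRPL50 (130 and 71 fragments), MRPL32 (156 and 102) and MRPL28 (46 and 22). The strongest regions of the 2 lists did not overlap at MRPL17, MRPL24, MRPL28 and MRPS12. At the region with the most fragments, 14 members were above 1 and 2 below, with MRPL17, MRPL24 and MRPL28 no longer among them. For MRPL32 that was the upstream region with the control siRNA and the one over the start with siDLEU1-2. Its ratio there does not compare the same place.

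**Figure D3:**
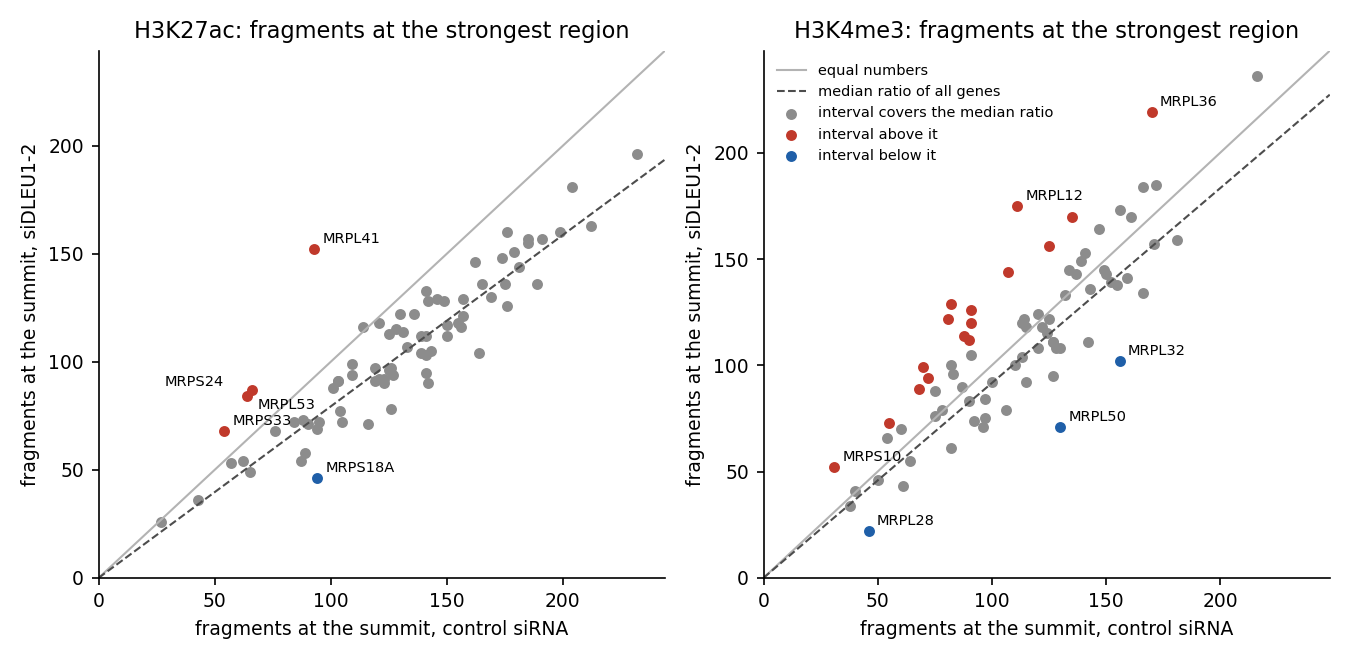
Fragments at the summit of the strongest region of each of the 78 genes with the control siRNA (x axis) and with siDLEU1-2 (y axis), for H3K27ac (left) and H3K4me3 (right). The solid line is equal numbers, the dashed line the median ratio of all protein-coding genes, and red and blue points are genes whose 95% counting interval lies above or below that ratio. For H3K27ac 4 points are red and 1 is blue, and for H3K4me3 16 and 3.

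By percentile rank, H3K27ac was lower at 42 members and higher at 36, against 62.4% of all protein-coding genes lower, with a median change of −1.94 points against −4.32. The median change was 0.912 with equal numbers of regions in both lists and −6.80 at the stricter limit, so it has no stable sign. A fall of 10 points or more was seen at 23 members, against 36.1% of all genes, and a rise of that size at 19, against 16.8%. H3K4me3 was lower at 26 and higher at 52, against 47.5% of all genes lower, with a median change of 3.68 points against 0.371, and of 9.53 at the stricter limit. It fell by 10 points or more at 6 members and rose at 20, against 18.5% and 18.6% of all genes.

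The 5 largest falls in H3K27ac rank were at MRPS18B, MRPS26, MRPL48, MRPL1 and MRPS18A. MRPS18B, a homolog of bacterial protein S18 (chromosome 6, 30585617 to 30594172, plus strand), went from 69.5 to 16.6, with 95 and 72 fragments and a local background of 0.60 and 2.0 fragments. MRPS26, found only in mitochondrial ribosomes (chromosome 20, 3026698 to 3028896, plus strand), fell from a rank of 92.2 to one in the middle of the list with 136 and 122 fragments, and its background was 0.561 and 2.0. The H3K4me3 rank of MRPS18B was 98.6 and 98.7, but from 2 regions that did not overlap, the one from −2811 to −571 with the control siRNA and the one from −389 to 948 with siDLEU1-2. The H3K27ac fragment ratios of MRPS18B and MRPS26 to all genes were 0.955 and 1.13, so the rank of both moved further than the fragments did. MRPL48 (65.6 and 25.1), MRPL1, a protein of the stalk at which tRNA leaves (69.7 and 29.3), and MRPS18A (73.2 and 36.6) had fragment ratios of 0.782, 0.821 and 0.617. Ranked by fragments in place of fold enrichment, these 5 genes changed by −11.1, 5.20, −23.4, −20.5 and −37.4 points in the order given. The background at MRPS18A was 0.497 and 0.439, the only one of the 5 that was not higher with siDLEU1-2.

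The 5 largest rises in H3K27ac rank were at MRPL12, MRPL41, MRPL58, MRPS15 and MRPS17. MRPL12 went from 31.7 to 88.4 with 142 and 128 fragments, and its background was 4.0 and 0.880. MRPL58, a peptidyl-tRNA hydrolase that frees stalled ribosomes and is part of the large subunit (chromosome 17, 73008765 to 73017356, plus strand), went from 48.7 to 86.4 with 125 and 113 fragments. MRPS15 went from 57.7 to 94.3 and MRPS17 from 66.7 to 99.4, both small subunit proteins with a bacterial counterpart, with 149 and 128 and with 232 and 196 fragments. In all of these but MRPL41 the number of fragments was lower with siDLEU1-2, against 90.4% of all protein-coding genes. Divided by the median ratio of all genes, the fragment ratios of the 5 were 1.14, 2.06, 1.14, 1.08 and 1.06 in the order given.

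**Figure D4:**
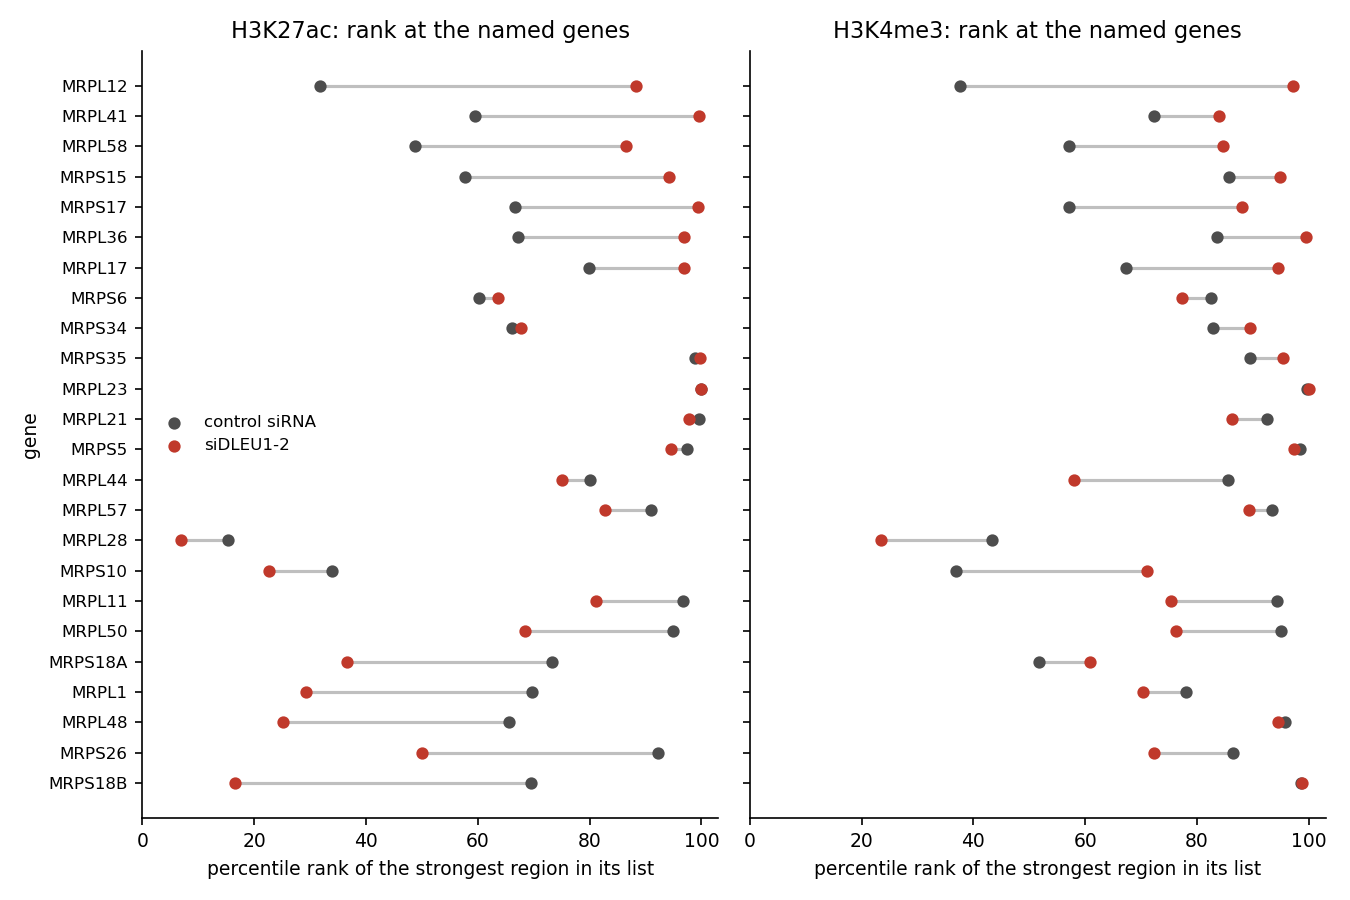
Percentile rank of the strongest region within its list (x axis, 0 to 100) at the 24 named genes (y axis, ordered by the change in H3K27ac), for H3K27ac (left) and H3K4me3 (right). Grey points are control siRNA, red points siDLEU1-2, and the line joins the 2 libraries. For H3K27ac MRPL12 had the largest rise, from 31.7 to 88.4, and MRPS18B the largest fall, from 69.5 to 16.6, and the H3K4me3 rank of MRPS18B was 98.6 and 98.7, taken from regions in different places.

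Rank follows fold enrichment, which has the local background as its denominator. A relation between changes in rank and in background is therefore partly built in, and the counts here only describe it. Of the 23 members that fell by 10 points or more in H3K27ac, 19 had a higher background with siDLEU1-2, with medians of 0.497 and 1.0, and their median fragment ratio to all genes was 0.95. Of the 19 that rose, 19 had a lower background, with medians of 1.68 and 0.634, and a median fragment ratio of 1.08. Ranked by fragments in place of fold enrichment, 11 of the 23 still fell by 10 points or more, and 3 of the 19 rose. Of the 20 members that rose in H3K4me3, 18 had a lower background, with a median fragment ratio of 1.41, and 10 rose by 10 points or more when ranked by fragments. The part of the background in these changes of rank was not tested.

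**Figure D5:**
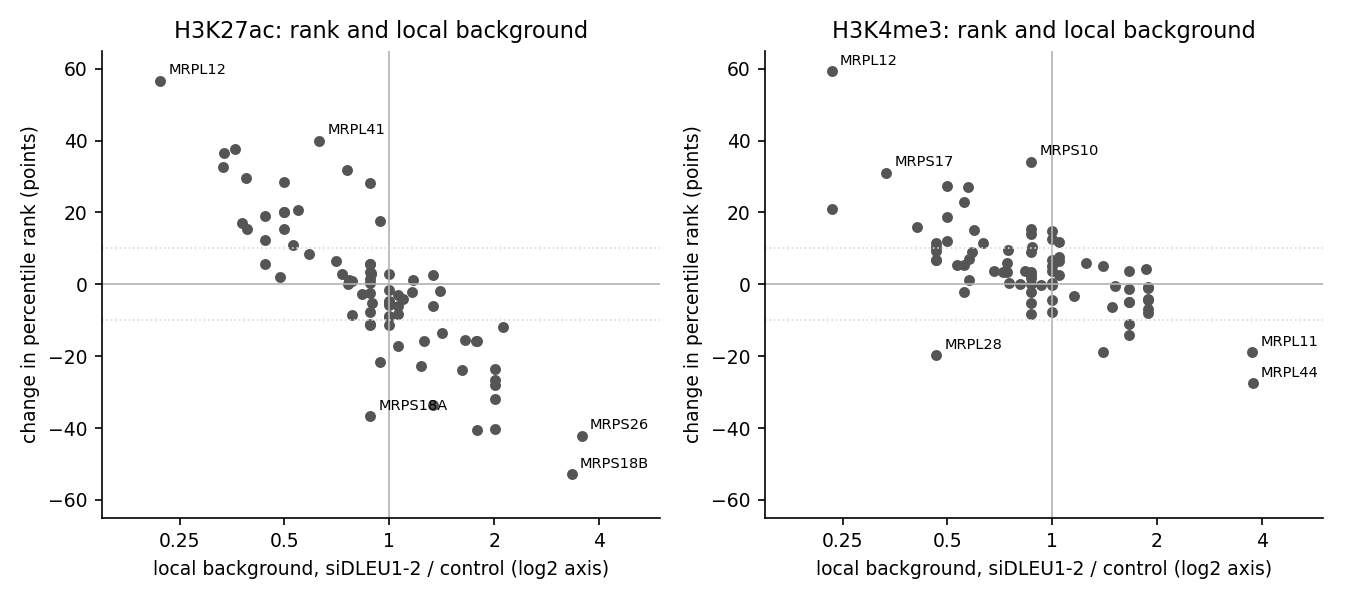
Change in percentile rank of the strongest region (y axis, points, siDLEU1-2 minus control) against the ratio of the local background at its summit (x axis, siDLEU1-2 over control, log2 axis) for the 78 genes, H3K27ac left and H3K4me3 right. Dotted lines mark changes of 10 points. The background is the denominator of the fold enrichment that was ranked, so the axes are not independent. For H3K27ac the 19 genes that rose by 10 points or more all lie left of 1, and 19 of the 23 that fell by as much lie right of it.

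The largest falls in H3K4me3 rank were at MRPL44, MRPL28, MRPL11, MRPL50 and MRPS26. MRPL44, a protein with a ribonuclease III-like fold, went from 85.6 to 58.1 with 90 and 83 fragments, in regions upstream and downstream of the start. MRPL11, at the base of the stalk, went from 94.2 to 75.3 with 147 and 164 fragments and a background of 0.80 and 3.0. MRPL50 went from 95.1 to 76.2 and had fewer fragments, in the upstream region given above. The largest rises were at MRPL12 (37.7 and 97.1), MRPS10 (36.8 and 71.0), MRPS17 (57.0 and 88.1), MRPL58 (57.1 and 84.6) and MRPL17 (67.3 and 94.4). At MRPL17, MRPL28 and MRPL44 the strongest H3K4me3 region lay in another place in each list. MRPS10 rose at a background of 0.532 and 0.463, and by 38.2 points when ranked by fragments.

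Changes of 10 points or more in both marks were counted in each direction. A local background enters the rank of each mark, and at MRPL12 and MRPS17, among others, it fell for both marks. Both fell by 10 points or more at MRPL11, MRPL50 and MRPS26, against 10.7% of genes with both marks. Both rose at 11 members (MRPL12, MRPL17, MRPL36, MRPL41, MRPL52, MRPL53, MRPL58, MRPS17, MRPS28, MRPS31 and MRPS33), against 6.36%. H3K27ac fell while H3K4me3 rose at MRPL20, MRPS10 and MRPS21, and the opposite was seen at MRPL38. The share of all genes with such opposite changes was not counted. The highest control ranks after MRPL23 were those of MRPL21 (99.5) and MRPS35 (98.8) for H3K27ac and of MRPS18B (98.6) and MRPS5 (98.4) for H3K4me3, and none of these 4 changed by 10 points in either mark except MRPS18B in H3K27ac.

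Grouped by the subunit in their symbol only, large and small subunit genes had similar ranks. MRPS18A was thus counted with the small subunit genes, although its protein sits in the large subunit, as given above. The 49 large subunit genes had median H3K27ac ranks of 77.7 and 80.7 and H3K4me3 ranks of 85.6 and 89.3, and the 29 small subunit genes 79.2 and 78.2, and 85.8 and 89.4. The small subunit genes had the wider H3K27ac regions with the control siRNA, 1396 bp against 1026 bp, and the lower width ratio, 0.759 against 0.858. By origin, the 48 genes with a bacterial counterpart had a median H3K27ac fragment ratio of 0.975 and the 30 without one 1.07, and for H3K4me3 both had about the same ratio, 1.10 and 1.11. Members with ETS letters had a median H3K27ac width ratio of 0.749 (30 genes) and those without of 0.867 (39 genes), with fragment ratios of 1.01 and 1.06. None of these differences was tested, with 1 library per group.

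Genes of the same machinery outside the symbol rule had the marks as well. The ribosomal subunits AURKAIP1, CHCHD1, DAP3, GADD45GIP1 and PTCD3 had regions in all 4 lists, and at all 5 the rank of both marks was higher with siDLEU1-2, with median changes of 12.5 points for H3K27ac and 7.47 for H3K4me3. Of all protein-coding genes, 62.4% were lower in H3K27ac rank and 47.5% in H3K4me3 rank, with median changes of −4.32 and 0.371. All 37 assembly and translation factors had an H3K27ac region in both lists, and 36 and 37 had H3K4me3. Their H3K27ac regions were narrower at 37 of 37, against 90.0% of all protein-coding genes, with a median ratio of 0.837 against 0.794. Of 87 cytosolic ribosomal protein genes and paralogs, 85 were marked in each list, with a median H3K27ac width ratio of 0.904 and a median H3K4me3 fragment ratio of 1.22. The H3K4me3 counting interval lay above 1 at 28 of these 85, at 7 of 36 factors and at 16 of 78 members, against 11.3% of all genes. The H3K27ac coverage of the cytosolic core promoters, with medians of 155 and 64 bases, was near that of all genes given above.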

How the data were processed

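ChIP-seq of H3K27ac and H3K4me3 was performed by the authors in HSC3 cells, with 1 library for each siRNA and mark. Reads of an Ion Proton sequencer were mapped by the authors to hg19 with bowtie2, and peaks were called in each library with MACS2. The deposited lists give each peak's fold ratio over local background and the −log10 of p and q, and the deposited score was left unused. The control library and settings used for peak calling, and the number of reads, are not given in the sources used here, and the 2 libraries of input DNA were not used here.

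Peaks on chromosomes 1 to 22 and X were set against GENCODE (hg19). A gene was marked when a region shared at least 1 bp with the window from 1 kb before to 1 kb after any of its start sites. Fragments and background were solved from fold ratio and p, which recovered 100% of fragment numbers on simulated lists, and the strongest regions of 300 genes were found as in a direct search. Counting intervals are exact 95% intervals of counting error only. Members and lists were chosen with earlier results of these data known. The named genes were, for each mark, the 5 largest falls and rises in rank and the 3 highest control ranks, with the 3 widest and 3 narrowest H3K27ac regions of control cells. Other members are named where a count or a region singles them out, and were chosen with their values already seen. Alternatives were windows of 500 bp and 3 kb, 1 start site per gene, a stricter limit (−log10 q of 10 or more), joining of regions up to 1 kb apart, other rankings, equal numbers of regions and summed widths. Python 3.11.15, numpy 2.4.6, pandas 2.3.3, scipy 1.17.1 and matplotlib 3.10.9 were used.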

Additional observations from a re-analysis of the deposited data

How the results depend on the processing

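Of 68 values recomputed under the alternatives, 65 kept their direction and stayed within the spread of the members or within 1.5 times the count. The median change in H3K27ac rank turned from −1.94 to 0.912 with equal numbers of regions and moved to −6.80 at the stricter limit (−log10 q of 10 or more). The median change in H3K4me3 rank moved from 3.68 to 9.53 there. The cause was not tested. With 1 start site per gene, that of its longest coding transcript, 77 members were marked in each list. MRPS22 was left out there, and had regions of both marks at its canonical start, which is another one. Fragment counts at the region with the most fragments, and core promoter coverage at the stricter limit and for lists cut to equal length, were added after seeing the data. The median core promoter coverage was then 300 and 86 bases for H3K27ac and 177.5 and 300 bases for H3K4me3 at the stricter limit, and 300 and 98.5 and 205.5 and 300 for lists of equal length, while 1 and 4 members had a fragment ratio below and above that of all genes for H3K27ac and 2 and 14 for H3K4me3 at the region with the most fragments. No paired analysis was possible because each group has 1 library, and no replicate could be left out. At the H3K27ac depth given in the report, the counting interval of the fragment ratio covered the ratio of all genes at 73 of 78 members, where a difference was not detectable.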

Other observations

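Pseudogenes of these genes were mostly without the marks. Of 79 annotated pseudogenes named after a mitochondrial ribosomal protein gene, 5 had an H3K27ac region within 1 kb of a start with the control siRNA and 4 with siDLEU1-2, and 5 had an H3K4me3 region in either list, while all 78 protein-coding members had both marks in both lists.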
